A study of Mus musculus with 14 samples.

Results

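The Reg family of small secreted C-type lectin-like proteins has 7 members on the array, Reg1, Reg2, Reg3a, Reg3b, Reg3d, Reg3g and Reg4, and each was measured by 1 of the 41174 probes, found by matching the RefSeq accession of the probe to the gene. The family was picked because its Reg3 genes rose and its Reg4 fell with colitis in these same arrays, so the change with treatment is given below as a description, without a test. Whole-colon total RNA came from 14 female C57BL/6 mice aged 4 to 6 months, 1 mouse per array. The control genotype, Flox, has loxP sites around both copies of Nr3c1, which encodes the glucocorticoid receptor (GR). GR iKO mice add Villin-cre to the same alleles, and this Cre is driven in the intestinal epithelium, so cells outside it are not targeted. Each genotype drank regular water (control, n = 4) or water with 2.5% dextran sulfate sodium (DSS), an agent that injures the colonic epithelium, for 7 days (n = 3). Every level below is a log2 signal from which the 75th percentile of its own array was taken away, so that 0 marks a probe at that percentile. All 12 colonic epithelium markers, such as Epcam, Cdh1 and Cdx1, were well above background on every array.

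Reg proteins lack most of what surrounds the sugar-binding domain in larger lectins and consist of a signal peptide and 1 such domain. In the gut, REG3B and REG3G are made by epithelial cells and act at the mucus layer, where REG3G is known to kill Gram-positive bacteria, and their transcription is known to be raised by IL-22 through STAT3. Several members are also acute-phase genes of the pancreas, and most of the family was first described there, in acinar cells, which make the digestive enzymes, or in regenerating islets. Reg4 marks secretory cells at the base of colonic crypts, which sit among the stem cells, and it is also found in enteroendocrine cells.

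In the mouse, 6 of the 7 genes are direct neighbours among protein-coding genes on chromosome 6, in the order Reg3b, Reg3d, Reg3a, Reg2, Reg1 and Reg3g, and Reg4 lies apart on chromosome 3 (RefSeq, GRCm38.p6). Reg3b and Reg3g, at the 2 ends of the chromosome 6 group, had the promoters most alike in the family. Over the 300 bases from 250 before to 50 after the annotated start, 69% of aligned columns were identical between them, against 49.1% to 58.5% for the other 20 pairs of members. They also shared an unbroken run of 29 bases that no other promoter in the RefSeq table of 32851 windows holds. The sequences below are from RefSeq, GRCm38.p6, 5′ to 3′ on the strand of the gene. They show the pair that was high on every DSS array (Reg3b and Reg3g). Also shown is the pair that varied most between mice on water (Reg1 and Reg2). The last is the member that was lower on every DSS array than on any water array (Reg4). Capitals mark TATAAA within 40 bases before the start, the 29 bases shared by Reg3b and Reg3g and, in Reg4, which has no TATAAA in its window, the only CACCTG.
Reg3b (chr6:78370635-78370934, plus strand): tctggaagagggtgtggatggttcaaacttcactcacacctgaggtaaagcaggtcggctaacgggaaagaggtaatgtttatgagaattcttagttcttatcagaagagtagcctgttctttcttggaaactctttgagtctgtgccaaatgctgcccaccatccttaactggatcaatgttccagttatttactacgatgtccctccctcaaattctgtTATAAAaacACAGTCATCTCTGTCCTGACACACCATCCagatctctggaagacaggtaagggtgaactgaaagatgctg
Reg3g (chr6:78468825-78469124, minus strand): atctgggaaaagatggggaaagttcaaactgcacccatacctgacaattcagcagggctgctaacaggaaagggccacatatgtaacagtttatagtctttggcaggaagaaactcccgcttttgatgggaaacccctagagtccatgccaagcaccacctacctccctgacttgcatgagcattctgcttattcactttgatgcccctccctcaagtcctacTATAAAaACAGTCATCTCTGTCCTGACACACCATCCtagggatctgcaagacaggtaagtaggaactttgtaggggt
Reg1 (chr6:78425733-78426032, plus strand): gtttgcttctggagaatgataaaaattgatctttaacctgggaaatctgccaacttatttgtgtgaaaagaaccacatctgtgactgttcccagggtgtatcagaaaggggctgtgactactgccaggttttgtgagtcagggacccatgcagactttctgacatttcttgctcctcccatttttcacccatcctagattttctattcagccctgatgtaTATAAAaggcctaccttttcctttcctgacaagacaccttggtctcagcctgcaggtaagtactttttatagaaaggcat
Reg2 (chr6:78404905-78405204, plus strand): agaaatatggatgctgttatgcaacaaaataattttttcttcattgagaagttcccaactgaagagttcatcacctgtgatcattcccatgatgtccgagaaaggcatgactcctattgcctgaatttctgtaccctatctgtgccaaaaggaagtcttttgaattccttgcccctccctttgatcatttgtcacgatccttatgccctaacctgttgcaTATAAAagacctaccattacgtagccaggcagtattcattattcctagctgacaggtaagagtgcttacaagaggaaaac
Reg4 (chr3:98221906-98222205, plus strand): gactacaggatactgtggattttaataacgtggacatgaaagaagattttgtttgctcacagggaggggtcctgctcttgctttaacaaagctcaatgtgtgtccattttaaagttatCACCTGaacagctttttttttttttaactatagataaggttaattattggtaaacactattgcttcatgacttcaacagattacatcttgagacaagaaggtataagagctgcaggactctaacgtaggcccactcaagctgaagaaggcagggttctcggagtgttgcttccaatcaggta

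Motif letters were searched on both strands of the 7 windows. TATAAA was found in 4 of 7 (Reg1, Reg2, Reg3b and Reg3g) and in 13.6% of all promoter windows. CACCTG, an E-box, was found in 5 of 7 (Reg2, Reg3a, Reg3b, Reg3d and Reg4) and in 20.2% of all windows. TTTCCC was found in 4 of 7 (Reg1, Reg3b, Reg3d and Reg3g) and in 25.2% of all windows. TTCNNNGAA, the spacing to which STAT factors bind, was found in Reg3b, starting at position −129 from the start, and in Reg3d, at −238, and in 8.3% of all windows. In Reg3d this match overlaps a TTTCCC that begins at −239, and no other matches of different motifs overlap. GNACA and TGTNC at a distance of 3 bases, a relaxed form of the palindrome that GR binds, was found in 0 of 7 and in 0.475% of all windows. These are matches of letters in short windows and carry no measurement of binding.

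Nr3c1, the targeted gene, was at 57.3% of the Flox signal in GR iKO colons on water (exact permutation p 0.0286, the smallest that 4 against 4 arrays allow) and at 56.1% on DSS (exact p 0.1, the smallest that 3 against 3 allow). The 75th percentile of the processed signal ran from 262 to 1003 intensity units and was lowest on Flox DSS replicate 4. Of the 98 member spots, 80 were well above background and none was saturated. Markers of pancreatic acinar cells, of which 13 of 14 were on the array, differed widely between mice. Their summed signal, in multiples of the 75th percentile, was 26.5 to 381 in Flox and 43.0 to 409 in GR iKO colons on water, 298 to 10379 in Flox colons on DSS, and 2.41, 3.02 and 1469 in GR iKO colons on DSS. The highest sum was on Flox DSS replicate 4, and the 2 lowest were on GR iKO DSS replicates 1 and 4. All 13 markers were well above background on 10 of the 14 arrays, and 7, 9, 12 and 12 of them on the other 4. Cela1 and Clps, 2 of the 13, were at 2.27 or higher on every water array, including those where most of the others were near background. These values are set beside the members throughout.

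Reg3b and Reg3g, the antibacterial pair, were low on all 8 water arrays and far above them on all 6 DSS arrays. Reg3b was at −3.23, −3.14, −3.65 and −2.54 in Flox colons on water and at 8.64, 7.75 and 9.46 on DSS. In GR iKO colons it was at −0.85, −3.14, −3.74 and −3.58 on water and at 6.58, 7.64 and 8.57 on DSS. No DSS array came within 7.43 log2 units of a water array of its genotype, and the spread between mice of a group was at most 1.34 (SD). The mean difference was 11.76 ± 0.54 (SE) in Flox and 10.42 ± 0.88 (SE) in GR iKO colons, which is 3461-fold and 1372-fold.

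Reg3g followed the same course. It was at −3.91, −2.93, −3.10 and −3.71 in Flox colons on water and at 6.77, 6.00 and 7.02 on DSS. In GR iKO colons it was at −2.69, −3.36, −3.75 and −4.70 on water and at 4.64, 4.32 and 7.36 on DSS. The difference was 10.01 ± 0.39 (SE) in Flox and 9.07 ± 1.05 (SE) in GR iKO colons, and the groups were apart by at least 7.01 units in both genotypes. GR iKO DSS replicate 4, in which the acinar markers were near their lowest, had the highest Reg3g of all 14 arrays.

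**Figure D1:**
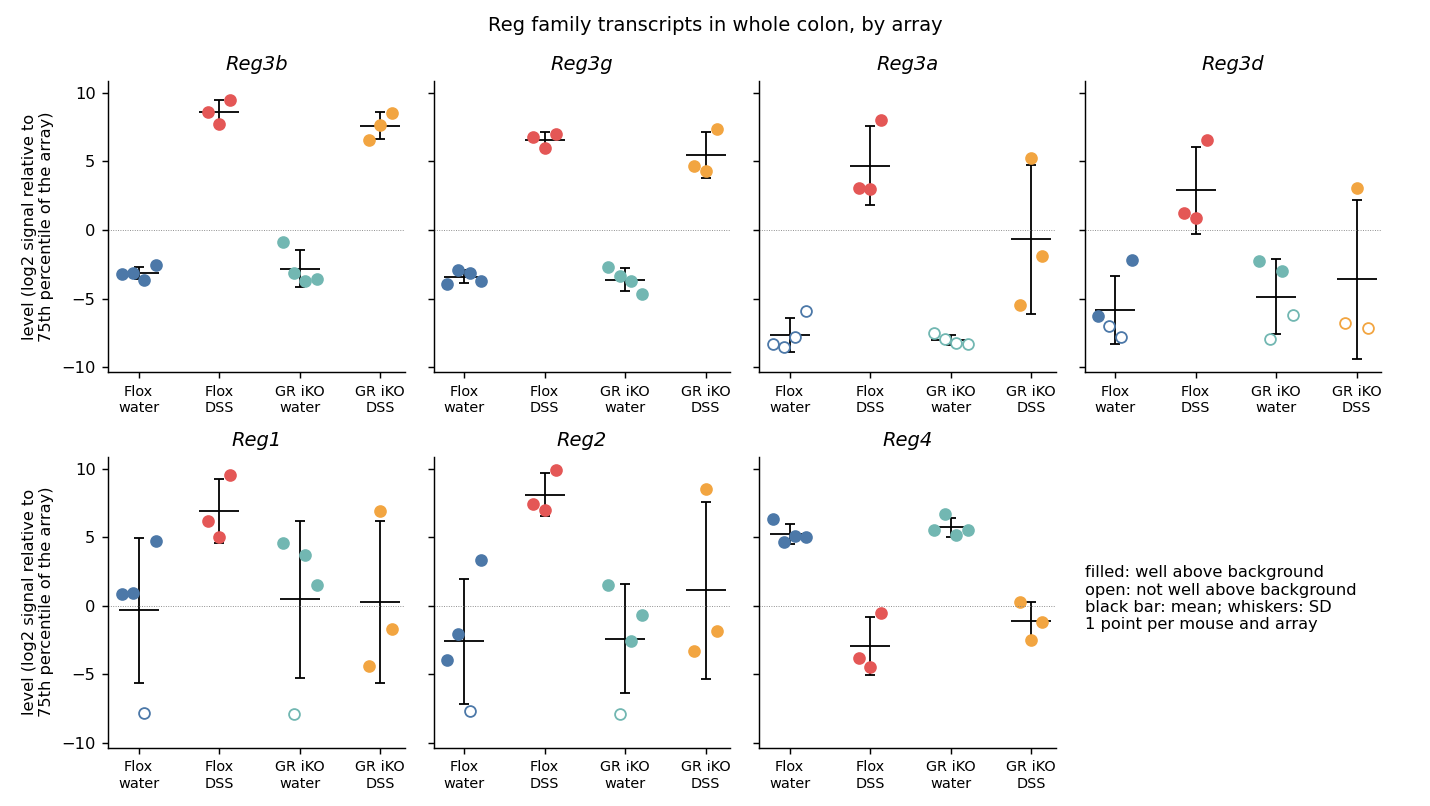
Levels of the 7 Reg genes on each of the 14 arrays (log2 signal, with the 75th percentile of each array set to 0), by group, with 1 point per mouse, the mean as a bar and the SD as whiskers. Reg3b and Reg3g sit above 4 on every DSS array and below 0 on every water array, Reg4 is lower on every DSS array than on any water array, and Reg1, Reg2, Reg3a and Reg3d spread over more than 10 units within GR iKO colons on DSS.

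Reg3a, a further Reg3 lectin, did not stand well above background in any colon on water, with values of −8.53 to −5.90 in Flox and −8.31 to −7.51 in GR iKO colons. Its processed signal there was at most 12.2 intensity units in Flox colons, against 3668 to 66993 on DSS. In Flox colons on DSS it was at 3.09, 2.99 and 8.0, and in GR iKO colons at −5.44, 5.27 and −1.87. Every DSS array was above every water array of its genotype, with a gap of 8.89 units in Flox and 2.06 in GR iKO colons. Because the water signal is only a bound, the DSS mean was at least 1667-fold above it in Flox and at least 36.0-fold in GR iKO colons. The latter rests on replicate 3, without which it was at least 4.57-fold, and it was at least 188-fold without replicate 1 and at least 54.3-fold without replicate 4. The Flox bound was 530-fold without Flox DSS replicate 4 and ran up to 3006-fold without replicate 2.

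Reg1, Reg2 and Reg3d were above water on every DSS array in Flox but not in GR iKO colons. Reg1, which encodes pancreatic stone protein, was at 0.88, 0.92, −7.81 and 4.70 in Flox colons on water and at 6.17, 5.0 and 9.51 on DSS. In GR iKO colons it was at 4.57, −7.91, 3.73 and 1.48 on water and at −4.37, 6.93 and −1.68 on DSS. The water arrays alone thus spanned 12.51 units in Flox and 12.49 in GR iKO colons. The low ends, −7.81 and −7.91, were not well above background, so these spans depend on dim spots. The highest Flox water array lay 0.29 below the lowest Flox DSS array.

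Reg2, its close relative, was at −3.93, −2.08, −7.69 and 3.30 in Flox colons on water and at 7.40, 6.97 and 9.90 on DSS. In GR iKO colons it was at 1.51, −7.86, −2.54 and −0.68 on water and at −3.30, 8.51 and −1.87 on DSS. The lowest water values, −7.69 and −7.86, were not well above background. Only replicate 3 of the GR iKO DSS mice stood above the GR iKO water arrays. The mean difference was 10.69 ± 2.46 (SE) in Flox and 3.51 ± 4.23 (SE) in GR iKO colons, and without GR iKO DSS replicate 3 the latter was −0.19.

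Reg3d was at −6.29, −6.97, −7.82 and −2.21 in Flox colons on water and at −2.22, −7.97, −2.99 and −6.23 in GR iKO colons on water. In each genotype 2 of the 4 water arrays showed it well above background, as did all 3 Flox DSS arrays (1.21, 0.88 and 6.56) and 1 of 3 GR iKO DSS arrays (3.08 in replicate 3). The other 2 GR iKO DSS arrays were at −6.75 and −7.13, not well above background, as were the dimmest water arrays at −7.82 and −7.97. The mean difference was 8.71 ± 2.22 (SE) in Flox and 1.25 ± 3.6 (SE) in GR iKO colons.

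Reg4, the crypt-base secretory member, went the other way on every array. It was at 6.30, 4.62, 5.10 and 4.99 in Flox colons on water and at −3.80, −4.50 and −0.50 on DSS. In GR iKO colons it was at 5.51, 6.69, 5.12 and 5.52 on water and at 0.26, −2.49 and −1.16 on DSS. The difference was −8.18 ± 1.28 (SE) in Flox and −6.84 ± 0.86 (SE) in GR iKO colons, that is 291-fold and 115-fold lower on DSS. It stayed well above background on all 14 arrays, so the loss is measured and is not a bound. In whole colon, fewer cells of a type and less RNA per cell cannot be told apart.

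Counted over the family, the DSS and water arrays did not overlap for 7 of 7 genes in Flox colons (6 higher and Reg4 lower) and for 4 of 7 in GR iKO colons (Reg3a, Reg3b and Reg3g higher, Reg4 lower). Among all tested probes, groups did not overlap in the higher direction for 25.8% in Flox and 22.6% in GR iKO colons, and in the lower direction for 31.5% and 23.6%. The family was chosen on this contrast, and nothing is read from these counts.

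The levels of the members were set against the acinar markers mouse by mouse. The 13 markers, which encode digestive enzymes and their cofactors such as carboxypeptidase A1 (Cpa1), were summarised as their mean log2 level on each array. On DSS, this mean was −3.32, 6.43 and −3.31 in GR iKO replicates 1, 3 and 4 and 5.85, 3.92 and 9.56 in Flox replicates 1, 2 and 4. Ranked by it, the 6 DSS arrays stood in the order in which Reg1, Reg2 and Reg3a ranked them. The 2 lowest, GR iKO replicates 1 and 4, were all but tied (−3.3165 and −3.3108). Without Cela1 and Clps their order turned (−3.70 and −3.87), so for these 2 arrays the match rests on the choice of markers. Since 2 DSS arrays stand far below the other 4, no pooled correlation is given for DSS, and 4 arrays are too few for a test. On water, 2 arrays also stood apart, at −3.62 (Flox replicate 3) and −3.30 (GR iKO replicate 2), against 1.14 to 4.56 on the other 6. Over those 6 arrays the correlation with the acinar mean was r = 0.998 for Reg3d (exact permutation p 0.00556, adjusted over the 7 genes 0.0389; rho = 0.886, exact p 0.0333, adjusted 0.117), with 4 of the 6 values well above background, and r = 0.983 for Reg1 (exact p 0.0167, adjusted 0.0584; rho = 0.771, exact p 0.103, adjusted 0.24). For Reg2 it was r = 0.643 (exact p 0.193, rho = 0.486), for Reg3b r = 0.540 (exact p 0.289, rho = 0.486), for Reg3g r = 0.273 (exact p 0.561, rho = 0.429) and for Reg4 r = −0.106 (exact p 0.867, rho = 0.0857), none of them past the threshold. The adjustment also counts Reg3a (r = 0.689, exact p 0.0653; rho = 0.886, exact p 0.0333, adjusted 0.117), none of whose water values was well above background. Over these 6 arrays only Reg3d passed, by r and not by rho. With the 2 low arrays kept in, all 8 gave r = 0.991 for Reg1, 0.894 for Reg3d and 0.897 for Reg2. The exact permutation p, adjusted over 14 relations of both treatments, was 0.00389, 0.00389 and 0.0103. The rho was 0.881, 0.929 and 0.762 (adjusted 0.0203, 0.00973 and 0.0736). None of the 3 genes was well above background on the 2 low arrays, which stand far below the rest. Reg3a, Reg3b, Reg3g and Reg4 passed by neither.

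**Figure D2:**
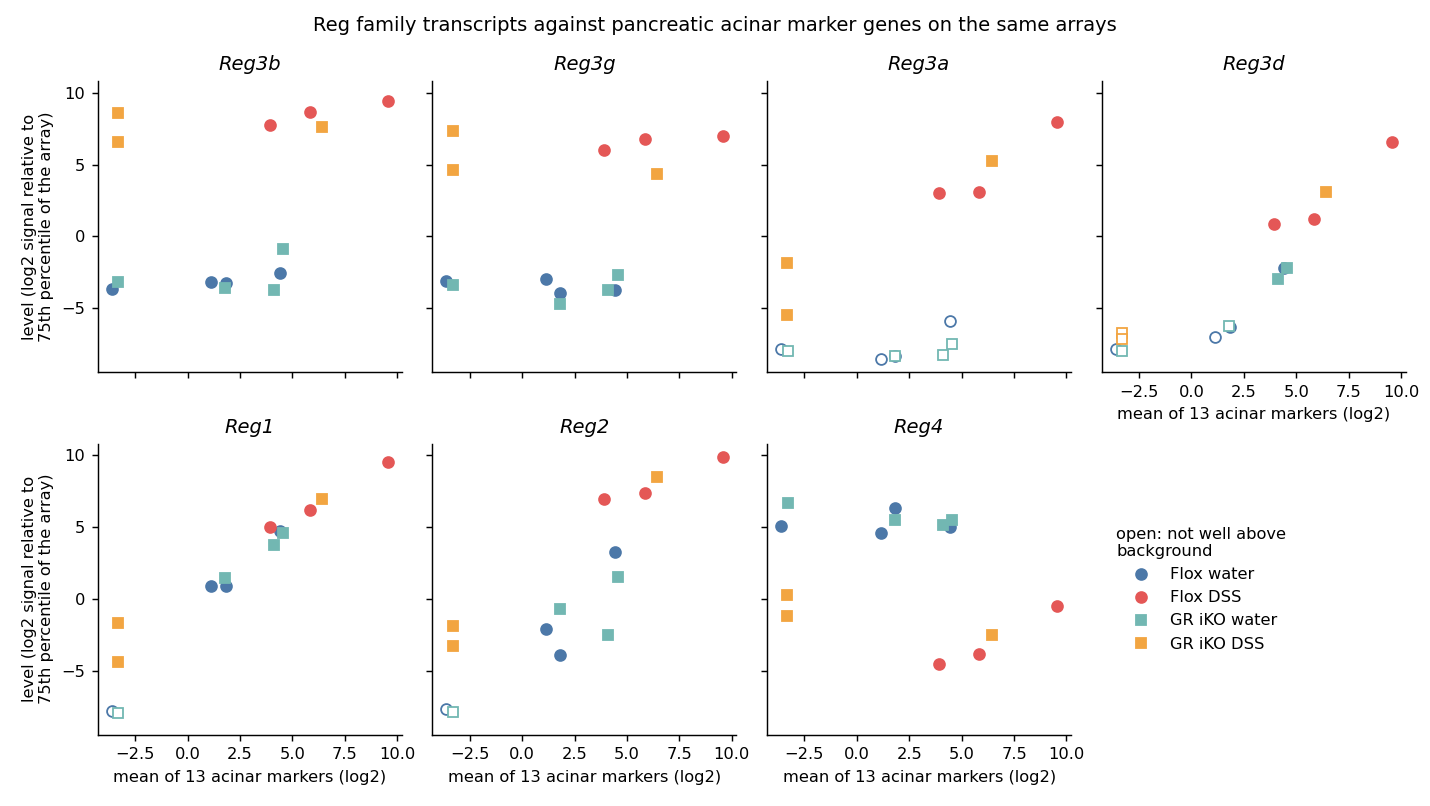
Level of each Reg gene (y axis, log2) against the mean log2 level of the 13 acinar markers (x axis) on the same array, for all 14 arrays. Circles are Flox and squares GR iKO, and open symbols mark spots not well above background. Reg1 rises along 1 band shared by water and DSS arrays from an acinar mean of 1.14 upward, Reg2, Reg3a and Reg3d lie higher on Flox DSS replicate 2 than on water arrays of similar acinar mean, and Reg3b, Reg3g and Reg4 separate by treatment in the 2 ranges where both treatments have arrays, −3.62 to −3.30 and 3.92 to 4.56.

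Water and DSS arrays had like acinar means only at the low end and near that of Flox DSS replicate 2. Flox water replicate 3 and GR iKO water replicate 2, at −3.62 and −3.30, can be set beside GR iKO DSS replicates 1 and 4, at −3.32 and −3.31. These like means hold unlike markers, since Cela1 and Clps were at 2.27 to 4.60 on the 2 water arrays and at −2.52 to 0.55 on the 2 DSS arrays, while the mean of the other 11 was −4.88 and −4.69 on water and higher, at −3.70 and −3.87, on DSS. Of those 11 markers, 5 and 7 were well above background on the water arrays and 10 on each DSS array. Across these 4 arrays, in this order, Reg3b was at −3.65, −3.14, 6.58 and 8.57, and Reg3g at −3.10, −3.36, 4.64 and 7.36. Both genes thus differed by treatment on these arrays, although Reg3b at 6.58 was the lowest of the 6 DSS arrays. Reg4 was at 5.10, 6.69, 0.26 and −1.16, and its fall was likewise present. Reg3a went from not well above background to −5.44 and −1.87, Reg1 from not well above background to −4.37 and −1.68, and Reg2 from not well above background to −3.30 and −1.87. The mean of the other 11 markers was also higher on these 2 DSS arrays than on the 2 water arrays. Between the 2 DSS arrays it was lower on replicate 4, where these 3 genes were higher. What sets these levels was not tested. Reg3d was not well above background on any of the 4 arrays.

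At the other end, Flox water replicate 4, GR iKO water replicate 1 and GR iKO water replicate 3 had acinar means of 4.42, 4.56 and 4.11, and Flox DSS replicate 2 had 3.92. Reg1 was at 4.70, 4.57 and 3.73 on those water arrays and at 5.0 on the DSS array, which is 0.29 above the highest of the 3. Reg2 was at 3.30, 1.51 and −2.54 against 6.97, and Reg3d at −2.21, −2.22 and −2.99 against 0.88. Reg3a was not well above background on the 3 water arrays and at 2.99 on the DSS array. Islet genes, another sign of pancreas, were measured by 2 of 3 listed probes, whose summed signal reached 2.91 and 1.16 on Flox DSS replicates 1 and 4 against at most 0.142 on the other 12 arrays. The source of these transcripts was not tested.

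With the acinar mean as a covariate, a setting added after the values had been seen, the DSS difference in Flox colons was 0.26 for Reg1, 4.84 for Reg2 and 3.97 for Reg3d. It remained at 11.23 for Reg3b, 10.37 for Reg3g and −7.91 for Reg4. In GR iKO colons the same setting gave 2.17 for Reg1, 5.48 for Reg2, 2.85 for Reg3d, 10.60 for Reg3b, 8.94 for Reg3g and −6.93 for Reg4. The Flox values of Reg1, Reg2 and Reg3d thus lay below the unadjusted 7.22, 10.69 and 8.71 by more than 1 SD between mice, and those of Reg3b, Reg3g and Reg4 did not. No such value is given for Reg3a, whose water signal is only a bound.

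To see whether epithelial GR alters the family, GR iKO and Flox colons were compared within each treatment, with limma fitted over all tested probes of those arrays. On water, where Reg3a was not measured above background and is left out, none of the other 6 genes was called (adjusted p 1 for each; unadjusted p 0.322 to 0.938), against 0.0102% of all tested probes (0.00677% higher and 0.00339% lower). The arrays of the genotypes overlapped for all 6, whereas they did not overlap for 1.27% of all probes in the higher and 0.983% in the lower direction. Reg3b, Reg3g and Reg4 were well above background on every water array and had narrower intervals than Reg1, Reg2 and Reg3d. The difference on water was 0.32 (95% interval −1.10 to 1.73) for Reg3b, −0.21 (−1.18 to 0.75) for Reg3g and 0.46 (−0.54 to 1.45) for Reg4. For Reg1 the interval ran from −6.95 to 8.54 and for Reg2 from −5.82 to 6.24, so that large differences in either direction lie within them.

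On DSS, 6 of 7 genes had a lower mean in GR iKO than in Flox colons and Reg4 a higher one, and none was called by limma (adjusted p 0.321 to 0.527), as in 0% of all tested probes. None of the 7 had an unadjusted p under 0.05 (0.058 to 0.202), and 4794 of the 29523 probes did. With scaling to spike-in transcripts limma called 5 of the 7, Reg1, Reg2, Reg3a and Reg3d lower and Reg4 higher (adjusted p 1.27e-15 to 0.000411). It then called 4795 of the 29523 probes, 4732 higher and 63 lower, and gave all probes the same standard error of 0.65. Reg3b and Reg3g turned to 0.19 and 0.058, in a scaling that moved the median of all probes by 1.21. With n = 3 each, Reg3b had a mean of 8.62 (SD 0.85) in Flox and of 7.60 (SD 0.99) in GR iKO colons, a difference of −1.02 (95% interval −2.51 to 0.47). Reg3g differed by −1.16 (−3.12 to 0.80) and Reg4 by 1.80 (−1.01 to 4.61). The exact permutation p was 0.2 for Reg3b, 0.4 for Reg3g and 0.3 for Reg4, with 0.1 as the smallest possible. For all 7 genes the arrays of the genotypes overlapped, against 11.2% of all probes that were higher and 11.6% that were lower without overlap.

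Reg1, Reg2, Reg3d and Reg3a had the largest genotype differences on DSS. They were −6.60 (−13.58 to 0.38) for Reg1, −6.98 (−14.27 to 0.32) for Reg2, −6.49 (−13.75 to 0.77) for Reg3d and −5.38 (−12.15 to 1.40) for Reg3a. In each, 2 of 3 GR iKO arrays, replicates 1 and 4, lay below all Flox arrays, and replicate 3 lay among them. The acinar mean had the same pattern, with group means of 6.44 (SD 2.86) for Flox and −0.07 (SD 5.63) for GR iKO. With that mean as a covariate, added after the values had been seen, the differences were −0.23 for Reg1, −0.36 for Reg2, 0.26 for Reg3d and 0.63 for Reg3a (adjusted p 0.871 to 0.94 by limma). Reg3b was then at −0.59, Reg3g at −1.83 and Reg4 at 1.70. Because the acinar mean was low on the same 2 GR iKO arrays, its part and that of genotype cannot be told apart. Within slide 1, which holds 1 DSS mouse of each genotype, GR iKO minus Flox was 0.76 for Reg1, 1.11 for Reg2, 1.87 for Reg3d and 2.18 for Reg3a, and within slide 4 it was −11.18, −11.77, −13.69 and −9.87. For Reg3b it was −1.0 and −0.89, for Reg3g −2.45 and 0.34 and for Reg4 1.31 and −0.66. The sign thus turned between the 2 slides for 6 of the 7 genes, all but Reg3b. With the slide as a block, the difference of Reg4 was 0.32 (adjusted p 0.91 by limma) in place of 1.80.

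**Figure D3:**
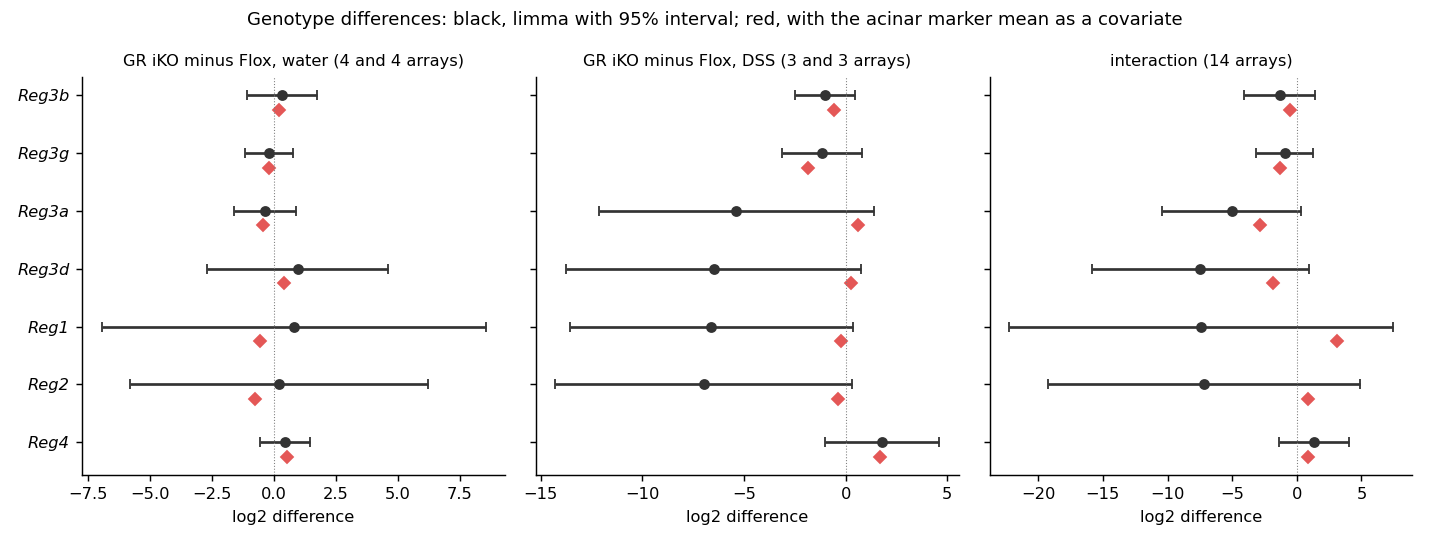
GR iKO minus Flox on water, on DSS, and the interaction (the DSS difference of GR iKO less that of Flox) for the 7 Reg genes, as log2 differences with 95% intervals (black) and with the acinar marker mean as a covariate (red, no interval drawn). Every black interval includes 0, the water value of Reg3a compares background signals, and on DSS the red points of Reg1, Reg2, Reg3a and Reg3d lie between −0.36 and 0.63, against −6.98 to −5.38 without the covariate. The covariate was added after the values had been seen, and on DSS its part and that of genotype cannot be told apart.

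The response to DSS was also compared between genotypes directly, as the interaction in a fit over all 14 arrays. It was not called for any of the 7 genes, of which Reg3a has only background on water (adjusted p 0.367 to 0.725 by limma, and 0% of all tested probes; none of the 7 had an unadjusted p under 0.05). The value was −1.33 (95% interval −4.09 to 1.42) for Reg3b, −0.94 (−3.17 to 1.29) for Reg3g and 1.34 (−1.36 to 4.04) for Reg4. Both a smaller and a larger response in GR iKO colons lie within these intervals.

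The spread between mice itself set the members apart from each other. On water, the SD within groups was 5.52 for Reg1 and 4.30 for Reg2, ranks 2 and 11 of 29506 probes, against a median of 0.187. Both genes were well above background on 3 of 4 water arrays in each genotype, and these SDs include the dim spots. On DSS it was 4.69 for Reg2, 4.67 for Reg3d, 4.49 for Reg1 and 4.36 for Reg3a, ranks 13, 14, 21 and 26, against a median of 0.340. Reg3b at 0.93 and Reg3g at 1.24 varied least of the family on DSS, yet more than most probes (ranks 2396 and 1035). On DSS, Reg1, Reg2 and Reg3a ranked the 6 arrays in 1 common order, with 2 low and 4 high arrays, so that no pooled correlation is given for them. Correlations were computed for 18 pairs of members well above background on every array of a treatment, and p-values adjusted over the 18. Reg3b with Reg3g had r = 0.826 on DSS (exact p 0.0417, adjusted 0.188; rho = 0.771, exact p 0.103, adjusted 0.463) and r = 0.536 on water (exact p 0.178, adjusted 0.512; rho = 0.548, exact p 0.171, adjusted 0.544), and without the 2 farthest arrays 0.862 and 0.345. Neither Reg3b nor Reg3g passed the threshold with Reg4 (adjusted p 0.935 to 0.958).

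Genes outside the family were compared with 4 members by the root mean square difference over the 14 arrays, after each gene had been centred on its water mean, among 15460 genes. Nearest to Reg3g were Wfdc12, a whey acidic protein family gene, at 1.30 log2 units, Il6 at 1.40, Hp (haptoglobin) at 1.68, S100a9 at 1.69 and Fgb (fibrinogen beta) at 1.74. Reg3b itself was nearer, at 1.24. Nearest to Reg3b were Wfdc12 (1.80), Il6 (2.14), S100a9 (2.25), Hp (2.53) and S100a8 (2.54). For Reg3a the nearest were farther off, from 3.29 for Wfdc12 to 3.57 for Fgb, with Hp, Il6 and Fgg between. Nearest to Reg4 were Tmprss13, a membrane serine protease gene, at 1.93, Nxpe2 at 1.96, Higd1c at 1.99 and the cytochrome P450 genes Cyp2c40 and Cyp2c39 at 2.06 and 2.13. Of these 5, the difference with DSS ran from −5.51 to −4.82 in Flox colons, smaller than the −8.18 of Reg4, which was picked for its fall.

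The genes that act upstream of the family, its receptor and its functional companions were then placed beside it, with limma over all 14 arrays. In these fits 52.6% of all tested probes were called with DSS in Flox colons (24.4% higher and 28.2% lower) and 44.5% in GR iKO colons (22% higher and 22.5% lower). With normexp background correction the numbers called in Flox turned from 7205 higher and 8338 lower to 10728 higher and 5767 lower. Spike-in scaling lowered the median of all probes in Flox by 2.32 and called 319 higher and 25998 lower. In GR iKO colons the numbers turned from 6491 higher and 6651 lower to 1159 and 15260 with spike-in scaling. The list counts turn with that scaling as well, and their spike-in values are given at each list. Of 21 tested cytokine, receptor and STAT3 pathway genes, 9 rose and 2 fell in Flox (median 0.45 against −0.09 over all probes) and 14 rose and 2 fell in GR iKO colons (median 0.63 against −0.02). Scaled to spike-in transcripts, 4 rose and 13 fell in Flox and 10 rose and 4 fell in GR iKO colons. Il22, the cytokine that drives Reg3 genes in epithelium, rose by 3.87 in Flox (SE 1.24; adjusted p 0.0193) and at least 51.2-fold in GR iKO colons (adjusted p 0.000301), where no water array measured it above background. In Flox colons 1 of 4 water arrays measured it and the groups overlapped, so that the difference there is set against dim spots. Il6, whose receptor chain also signals through STAT3, was not well above background on water and rose at least 57.8-fold in Flox and at least 134-fold in GR iKO colons. Socs3, the feedback inhibitor that STAT3 induces, rose by 4.53 and 5.22, and Il11 by 3.20 and 5.64 (SE 0.19 and 0.21).

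Extl3, known as a receptor of REG3 proteins on epithelial cells, rose by 0.71 ± 0.11 (SE, adjusted p 0.000206) in Flox and by 0.35 ± 0.11 (SE, adjusted p 0.0203) in GR iKO colons. Without GR iKO water replicate 1 or GR iKO DSS replicate 1, or with normexp, it was not called in GR iKO colons, and scaled to spike-in transcripts it was not called higher in either genotype and was called lower in Flox.

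Among 21 other antimicrobial effectors, 8 rose and 3 fell in Flox (median 0.50) and 14 rose and 3 fell in GR iKO colons (median 1.23), and with spike-in scaling 5 rose and 12 fell in Flox and 8 rose and 6 fell in GR iKO colons. The number that fell in Flox was 5 with quantile normalisation. S100a9 and S100a8, which encode calprotectin, rose by 8.08 and 7.26 in Flox and by 9.65 and 9.76 in GR iKO colons. Ltf (lactoferrin) rose by 4.02 in Flox and at least 184-fold in GR iKO colons, and Lcn2, which sequesters bacterial siderophores, by 4.98 and 6.53. On Flox water arrays S100a8 and Ltf were each well above background on 1 of 4, so that their differences there are set against dim spots. All 4 are proteins of neutrophils, although epithelium makes Lcn2 too. The neutrophil marker list holds S100a8 and S100a9 themselves, and its 5 other measured markers, of which Camp is among the 21 effectors too, summed to 0.0728 to 0.189 on water, 0.434 to 0.727 in Flox colons on DSS and 0.890 to 3.45 in GR iKO colons on DSS. The part of these cells in the calls was not tested.

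Genes of the secretory lineage were set beside Reg4. Of 16 goblet and deep crypt secretory genes, 9 fell and 0 rose in Flox (median −1.62) and 4 fell and 0 rose in GR iKO colons (median −0.74), and with spike-in scaling 15 and 14 fell. The 4 that fell in both were Atoh1, the master regulator of secretory fate (−3.30 and −2.54), Ern2, a stress sensor of mucous cells (−3.35 and −2.37), and the transcription factors Creb3l1 (−3.21 and −2.28) and Foxa3 (−2.58 and −1.48). Reg4, at −8.18 and −6.84, lay below all 16, but it was picked for its fall with DSS, so nothing is read from that place. One array weighed on the counts, since without Flox DSS replicate 4, the array with the most acinar signal, 14 of 16 fell in Flox. Without GR iKO DSS replicate 3, 7 fell in GR iKO colons. In these 2 fits 8537 and 6495 of all 29523 probes were called lower. On Flox DSS replicate 4 Reg4 was also the highest of its group, at −0.50, and the mean fall without that array was −9.40.

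Enteroendocrine genes, the other cells in which Reg4 is known, went both ways. Of 11, 3 rose and 5 fell in Flox and 2 rose and 0 fell in GR iKO colons, and with spike-in scaling 0 rose and 8 fell in Flox and 1 rose and 6 fell in GR iKO colons. The 2 that rose in both were Nts (neurotensin), by 3.25 and 3.09, and Sst (somatostatin), by 2.35 and 1.63. Without GR iKO DSS replicate 3, 3 fell in GR iKO colons.

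Other lectins, listed as soluble although Colec12 is a membrane receptor, did not move as 1 group with the Reg genes. Of 15 tested, 7 rose and 2 fell in Flox (median 0.32) and 4 rose and 2 fell in GR iKO colons (median 0.19), and with spike-in scaling 1 rose and 10 fell in Flox and 2 rose and 5 fell in GR iKO colons. Itln1, an intestinal lectin that binds microbial sugars, fell, with a difference of −3.75 (adjusted p 0.0121) in Flox and of −5.37 (adjusted p 0.00186) in GR iKO colons. Mbl2, a complement-activating lectin, was not well above background on water and rose at least 10.7-fold in Flox and at least 2.48-fold in GR iKO colons, where 2 of 3 DSS arrays measured it. Colec12, a scavenger receptor collectin, rose by 2.57 and 2.17 and Lgals1 by 1.74 and 0.94. The number that fell in Flox was 4 with quantile normalisation, 1 with separate weights per treatment, 1 without Flox DSS replicate 2 and 4 without Flox DSS replicate 4, and the number that rose in GR iKO colons was 2 without GR iKO DSS replicate 4. Of the 85 tested genes of these lists and the receptor, limma called 0 between genotypes on water, 0 on DSS and 0 in the interaction, with smallest adjusted p of 1, 0.226 and 0.0954. An unadjusted p under 0.05 by limma was found for 2, 24 and 21 of them, against 898, 4794 and 4389 of all 29523 tested probes.

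**Figure D4:**
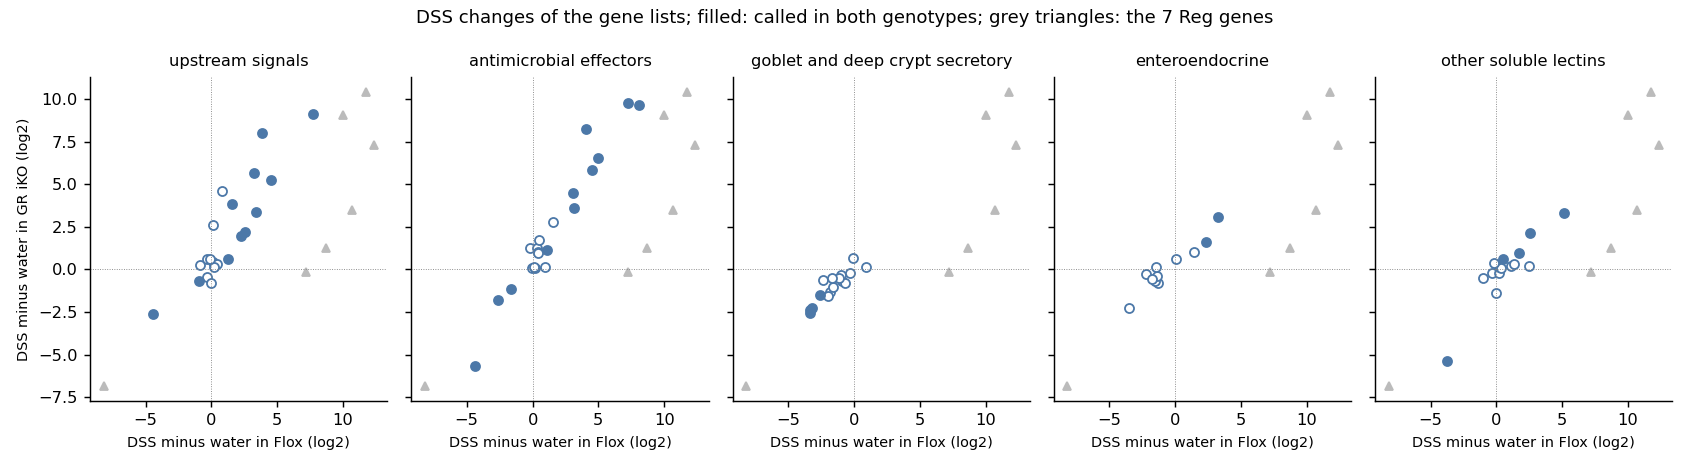
Difference between DSS and water in Flox (x axis) and in GR iKO colons (y axis), in log2 units, for each tested gene of 5 lists; filled points were called in both genotypes, and grey triangles repeat the 7 Reg genes in every panel. Goblet and deep crypt secretory genes lie between −3.35 and 0.93 in Flox while Reg4 lies at −8.18, and the upstream signals reach 7.71 in Flox while Reg3b lies at 11.76. The Reg genes were picked on this contrast and the lists were not.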

How the data were processed

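Total RNA of 14 whole colons, 1 mouse per array, was labelled with Cy3 (500 ng, per the labels) and hybridised to 1-colour Agilent mouse arrays. The scanner files, written by Agilent Feature Extraction 12.0.0.7, were deposited by the authors with a processed intensity per spot on a linear scale, background-subtracted, with low values raised to a positive surrogate and no scaling between arrays. The deposited value table holds log2 values with a median of 6.05 on each array and correlates with that array's log2 processed intensity at 0.999 or more, so its genes were not centred. It served as an alternative, and its normalisation is not given in the sources used here. The processing notes of the submitters also name Partek 6.6. The study called probes between genotypes at a q-value threshold of 0.05, and the test behind it is not given in the sources used here.

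Control spots and outlier spots were left out and spots of a probe averaged. Each array's log2 processed intensities were then lowered by their own 75th percentile. Testing required a signal well above background on at least 3 of 14 arrays (29523 of 41174), which all 7 members passed, Reg3a through its DSS arrays only. Probes were named by RefSeq accession through a GRCm38.p6 gene table (28223 of 29245 matched). The array grid is drawn on mm9, so probe positions are not given. All 7 members had a promoter window in the RefSeq table, and windows were compared with Biopython by global alignment (match 1, mismatch −1, gap −2 and −0.5). Groups and replicate numbers came from the sample labels.

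Differences were tested with limma 3.58.1 in R 4.3.3 (lmFit and eBayes, two-sided), adjusted by Benjamini-Hochberg over all tested probes, and called under 0.05. GR iKO was compared with Flox on the 8 water arrays or the 6 DSS arrays alone, since DSS arrays varied more. The interaction used all 14 with weights per treatment, and the gene lists used all 14 with 1 spread. The change of the members with DSS was not tested, because it chose them. Single values used exact two-sided permutation tests. A fold written as at least is the group mean over the higher of the dim probe's signal and the lowest signal well above background. Of each list, up to 4 genes called in Flox and GR iKO with like sign were named, by mean size, and genes were ranked for likeness to Reg3b, Reg3g, Reg3a and Reg4. The members, lists and markers were chosen with earlier results of these data known. Relations to the acinar markers were added after the values had been seen. Fits were tested on simulated data. The number of arrays limits the precision. Alternatives covered scaling, background correction, filters, the spread, blocks and each array left out.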

Additional observations from a re-analysis of the deposited data

How the results depend on the processing

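The count of Reg genes whose DSS and water arrays did not overlap was 7 in Flox and 4 in GR iKO colons without each array in turn, and 0 were called between genotypes on water, on DSS and in the interaction. Scaling to spike-in transcripts gave 6 in Flox and called 5 genes on DSS, among 4795 called of 29523 probes. GR iKO minus Flox was then −5.39 for Reg1, −5.76 for Reg2, −4.16 for Reg3a, −5.27 for Reg3d and 3.01 for Reg4. Under it the median difference of all probes moved by 1.21 on DSS, by −2.32 and −0.92 for DSS against water in Flox and GR iKO, and limma gave all probes the same standard error of 0.65 on DSS. Relative to that shift the signs of Reg3b (0.19 on DSS, 0.061 in the interaction) and Reg3g (0.058 and 0.45), which turned, are below the median probe. With the acinar mean as a covariate, added after seeing the data, the sign also turned for Reg1 with DSS in GR iKO colons (2.17), on water between genotypes for Reg1 (−0.55) and Reg2 (−0.74), on DSS for Reg3a (0.63) and Reg3d (0.26), and in the interaction for Reg1 (3.14) and Reg2 (0.84). The cause was not tested.

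Without each array in turn, the DSS difference in GR iKO colons ran from −3.49 to 2.16 for Reg1, −0.19 to 5.71 for Reg2 and −2.09 to 3.01 for Reg3d, the last 2 turning without GR iKO DSS replicate 3. On water, GR iKO minus Flox ran from −1.70 to 3.59 for Reg1, −1.49 to 2.18 for Reg2, −0.64 to 0.24 for Reg3a, −0.34 to 0.62 for Reg3b and −0.52 to 0.15 for Reg3g. Reg1 also turned without GR iKO water replicates 1, 3 or 4 or GR iKO DSS replicates 1 or 4. No other difference of a member changed sign, and no member was called between genotypes under any setting but the spike-in scaling. The lists had 0 genotype calls on DSS in the main fits. A spread shared by all 14 arrays called 8 upstream signals higher and 1 lower, 5 antimicrobial effectors higher and 4 lectins lower. It called 1901 of all 29523 probes higher and 2002 lower. Spike-in scaling called 11 upstream signals, 13 antimicrobial effectors, 13 goblet and 6 enteroendocrine genes higher, among 4732 probes. Quality weights per array called 527 probes higher and 1226 lower on DSS, and 1331 and 1625 in the interaction. Over all settings, the interaction was called higher for up to 11 upstream signals, 11 antimicrobial effectors, 9 goblet genes, 3 enteroendocrine genes and 1 lectin.

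Replicate numbers did not pair the samples, since deviations of same-numbered arrays correlated at −0.08 to 0.31. With the replicate block the counts were 7 and 4 with DSS and 0 in each genotype comparison, so no call of a member changed. Each member has 1 probe, so the alternatives over several probes gave no value. The normexp correction used median signals, since no mean signal column is in the files used here. Dim probes such as Reg3a on water are limited by background.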
